A study of Mus musculus with 6 samples.

Results

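Cholesterol synthesis, uptake and export were followed through 31 genes, chosen by symbol among the 55804 rows of the gene count table. They comprise 18 synthesis enzymes and 13 genes of SREBP control, intracellular transport and export. All 31 symbols were found once each, and 29 passed the low-count filter (filterByExpr in edgeR). RNA came from C2C12, a mouse myoblast line that forms multinucleate myotubes, grown in 20% fetal bovine serum and then kept for 3 days in differentiation medium with 2% horse serum. One group of 3 libraries carried a control guide RNA (Ctrl-gRNA, genotype WT) and the other group of 3 a guide against Prr33 (Prr33-gRNA, genotype PRR33 knocked down, made with CRISPR/CAS9). The labels do not say whether the edited cells were a clone or a mixed population, nor whether replicates were grown separately. A p-value here thus reflects only how much these libraries varied, and that variation may be technical.

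Cells build cholesterol from acetyl-CoA through the mevalonate pathway, which ends in farnesyl diphosphate, and then through squalene, lanosterol and a series of sterol intermediates. The SREBP transcription factors switch on these enzymes when sterol in the endoplasmic reticulum is low, with SCAP as their escort and the INSIG proteins as sterol-dependent brakes. Liver X receptors (LXR) respond to the opposite state and induce exporters of the ABC family. Muscle cells need cholesterol for membranes, including those that fuse in myotube formation.

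Counts assigned to the guide's target were lower but not absent. Prr33 stood at 61.4, 60.0 and 54.3 CPM (counts scaled to library size with TMM factors) in Ctrl-gRNA and at 43.1, 45.8 and 42.4 CPM in Prr33-gRNA. The log2 fold change, always Prr33-gRNA minus Ctrl-gRNA, came to -0.42 (SE 0.06; edgeR adjusted p = 1.37e-06), and the edit itself cannot be seen in a gene-level count. The span of Prr33 on chromosome 7 overlaps that of Tnnt3 on the opposite strand, a far more abundant transcript that was also lower (-0.70). How strand was treated in counting is not given and shared exons were not examined here, so the level and fall of Prr33 are uncertain. Total counts ran from 17006381 to 19471762 per library. Muscle markers were abundant in both groups, with 8 markers summing to 26741 to 27239 CPM across controls and 15054 to 15950 CPM with the Prr33 guide, where 7 were lower and Ckm higher. Fibroblast markers summed to 671 to 720 CPM and 65.9 to 69.6 CPM, 5 of 6 tested being lower. The drop in the sum was carried by Ly6a (mean 464 to 4.75 CPM) and Col1a1 (178 to 9.32 CPM), whereas Col1a2 rose (6.65 to 41.3 CPM). Adipocyte markers summed to 14.1 to 15.9 CPM and 59.7 to 63.9 CPM, a rise carried by Lpl, with Adipoq, Plin1 and Cidec at 0 counts. Macrophage, endothelial and hepatocyte markers each summed to under 4 CPM in every library, with Ptprc, Adgre1, Emcn, Alb and Ttr at 0 counts. The part of these shifts in the cholesterol results was not tested, and in bulk RNA fewer cells of a type cannot be told apart from less RNA per cell.

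Most synthesis enzymes that changed were higher with the Prr33 guide, while the cholesterol transfer gene Npc2, the squalene synthase gene Fdft1, the SREBP2 gene Srebf2 and the LXR-beta gene Nr1h2 were lower. Among the 29 tested genes, 13 were higher, 9 lower and 7 did not pass (edgeR, adjusted p below 0.05). That is 44.8% higher and 31% lower, where 25.5% of all 14651 tested genes were higher and 26.6% lower. For the 18 enzymes, 10 were higher and 4 lower (55.6% and 22.2%), with a median log2 fold change of 0.27 against -0.0023 over all tested genes. Without scaling factors, 61.7% of all calls were rises in place of 49.0%, and the 31 genes gave 14 higher and 8 lower. Of the 29 tested genes, 13 had CPM without overlap between groups in the higher direction and 9 in the lower, and 7 overlapped. Those apart were the same genes as called. Over all tested genes 28.6% were apart and higher and 29.3% apart and lower, 57.9% in all. The largest rise was 1.56-fold (Idi1) and the deepest fall was 1.88-fold (Npc2), so the changes were modest in size.

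**Figure D1:**
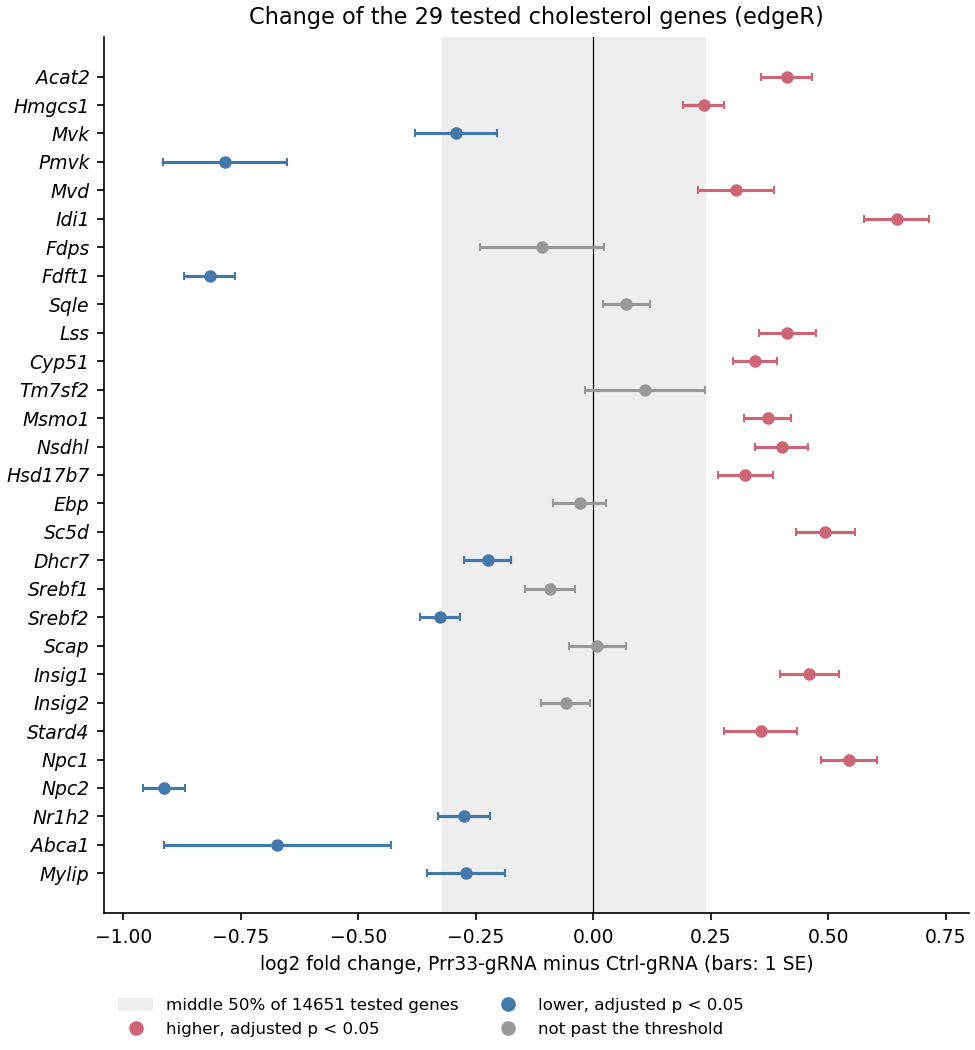
Log2 fold change (x axis, Prr33-gRNA minus Ctrl-gRNA, bars of 1 SE) of the 29 tested genes in pathway order, with red for higher, blue for lower and grey for genes not past the threshold. The shaded band spans the middle of all tested genes, from -0.32 to 0.24. Pmvk, Fdft1, Npc2 and Abca1 lie farthest to the left.

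Per unit of gene length, in the deposited FPKM, the 31 genes spanned a wide range of levels. In Ctrl-gRNA the highest were Npc2 (77.9 ± 1.06 FPKM; SD, n = 3), Srebf2 (57.4 ± 0.156 FPKM) and Hmgcs1 (44.0 ± 1.41 FPKM). In Prr33-gRNA the order of these genes became Hmgcs1 (52.0 FPKM), Srebf2 (46.0 FPKM) and Npc2 (41.5 FPKM). Tm7sf2 and Fdps were the lowest of the enzymes, at 2.40 and 2.28 FPKM in Ctrl-gRNA. Tm7sf2 encodes one of the sterol C14 reductases. Fdps, for farnesyl diphosphate synthase, shares 26.7% of its exonic bases in GENCODE M21 with the same-strand gene Gm43738, so reads could have been discarded or split there and its level is uncertain. At the bottom stood Abca1, Nr1h3 and Abcg1, each under 0.4 FPKM in every library.

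**Figure D2:**
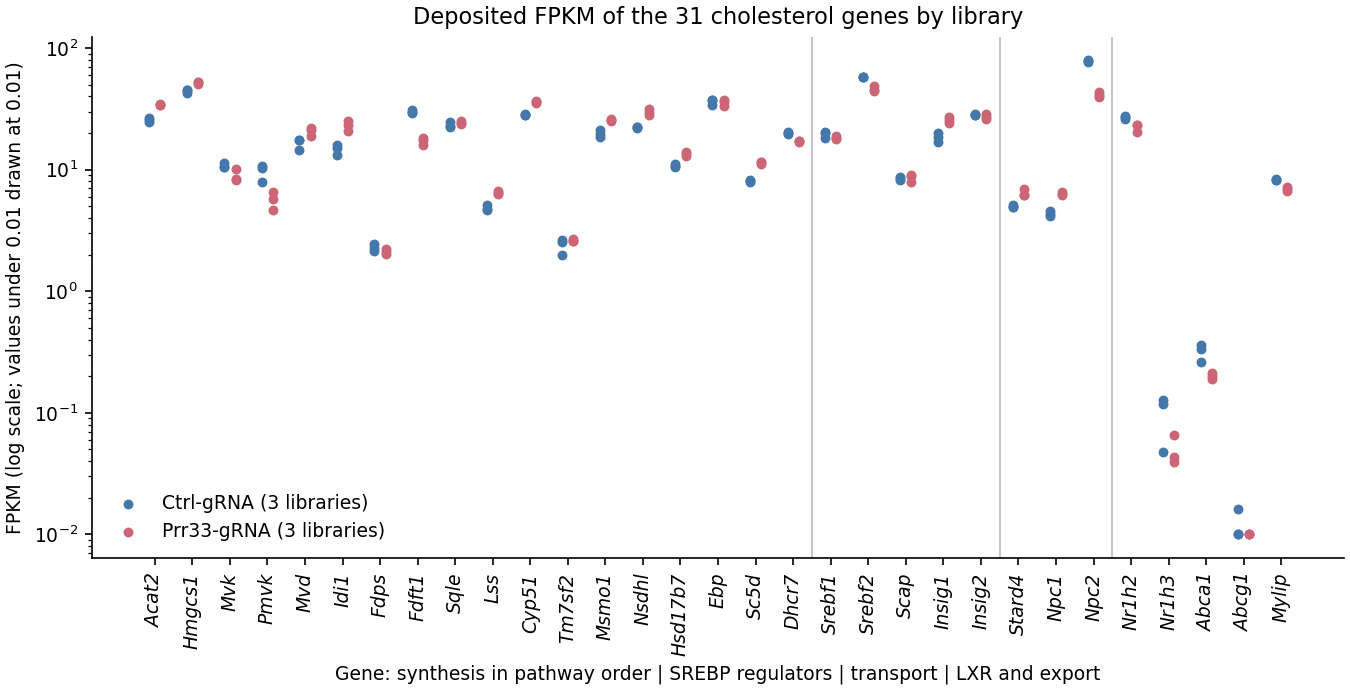
Deposited FPKM (y axis, log scale) of the 31 genes in every library, with synthesis enzymes in pathway order on the left and regulators, transport and LXR genes to the right. Enzymes lie between about 2 and 53 FPKM, and Nr1h3, Abca1 and Abcg1 lie far below the rest.

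Promoter sequence was examined because many enzymes moved the same way and because SREBPs are known to act on such promoters together with the CCAAT-binding factor NF-Y. RefSeq promoter windows (GRCm38.p6, 250 bases before to 50 after an annotated start) were found for 25 of the 31 genes, in 34 windows. Entries for Fdps, Fdft1, Sqle, Stard4, Npc1 and Abcg1 are missing. The word CCAAT, searched on both strands so that its complement ATTGG counts too, was present for 20 of the 25 genes and for 14 of the 15 enzymes matched. It was present for 43.3% of the 10125 tested genes with a window. Counted by window, it stood in 21 of these 34 (61.8%) and in 37.4% of all 32851. By call, 10 of 11 matched risers held the word, as did 6 of 8 matched fallers, while it stood in 44.2% of all matched genes that rose and 42.5% of those that fell. The sterol response element word TCACNCCAC was found for Hmgcs1 alone among the 25 genes, and for 1.41% of the tested genes with a window. By window, 1.24% of all held it. The SREBP sites of other promoters differ in their letters, so no match says only that these letters are absent from the window.

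Stretches of the 200 bases before the start are printed for 5 enzymes that rose and, as a contrast in direction, for Mvk, which fell. They lie at chr13:119690151-119690350 (Hmgcs1, plus strand), chr13:8885406-8885605 (Idi1, plus), chr8:64733579-64733778 (Msmo1, minus), chr9:42264301-42264500 (Sc5d, minus), chr1:169969206-169969405 (Hsd17b7, minus) and chr5:114444069-114444268 (Mvk, plus), all in GRCm38.p6. Each is read 5′ to 3′ along the gene, and capitals mark CCAAT, its complement, and the sterol response word.
Hmgcs1: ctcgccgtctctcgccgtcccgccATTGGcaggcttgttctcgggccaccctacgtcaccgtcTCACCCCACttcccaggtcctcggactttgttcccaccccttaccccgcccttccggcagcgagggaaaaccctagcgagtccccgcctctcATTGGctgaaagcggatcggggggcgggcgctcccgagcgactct
Idi1: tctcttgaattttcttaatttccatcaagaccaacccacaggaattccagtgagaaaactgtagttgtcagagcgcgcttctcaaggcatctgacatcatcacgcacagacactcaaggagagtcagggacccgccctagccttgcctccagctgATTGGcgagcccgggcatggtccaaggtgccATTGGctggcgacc
Msmo1: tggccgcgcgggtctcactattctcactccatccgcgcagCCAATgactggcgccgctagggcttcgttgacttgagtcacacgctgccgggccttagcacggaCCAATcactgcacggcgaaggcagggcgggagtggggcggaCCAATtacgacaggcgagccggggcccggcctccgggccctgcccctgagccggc
Sc5d: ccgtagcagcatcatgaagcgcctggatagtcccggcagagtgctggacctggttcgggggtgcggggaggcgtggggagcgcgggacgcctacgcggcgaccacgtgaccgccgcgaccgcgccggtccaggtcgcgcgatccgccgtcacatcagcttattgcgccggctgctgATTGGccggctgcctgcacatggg
Hsd17b7: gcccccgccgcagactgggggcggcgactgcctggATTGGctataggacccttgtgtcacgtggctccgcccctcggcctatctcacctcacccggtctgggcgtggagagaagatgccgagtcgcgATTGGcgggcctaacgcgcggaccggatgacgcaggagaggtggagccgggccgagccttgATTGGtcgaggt
Mvk: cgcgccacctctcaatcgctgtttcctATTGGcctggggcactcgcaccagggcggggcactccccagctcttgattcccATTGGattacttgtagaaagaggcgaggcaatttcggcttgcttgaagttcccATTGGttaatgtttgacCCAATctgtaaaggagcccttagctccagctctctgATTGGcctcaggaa
In Hmgcs1 the sterol word begins 137 bases before the start, between CCAAT words at 176 and 45 bases. Mvk, a gene that fell, holds 5 CCAAT words, at 173, 120, 67, 50 and 14 bases before its start. Sc5d holds 1, at 24 bases. Over all enzyme windows, 20 of the 32 CCAAT words began within 100 bases before a start. The same share over all promoter windows was not computed, so this position is not shown to be particular to the enzymes.

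**Figure D3:**
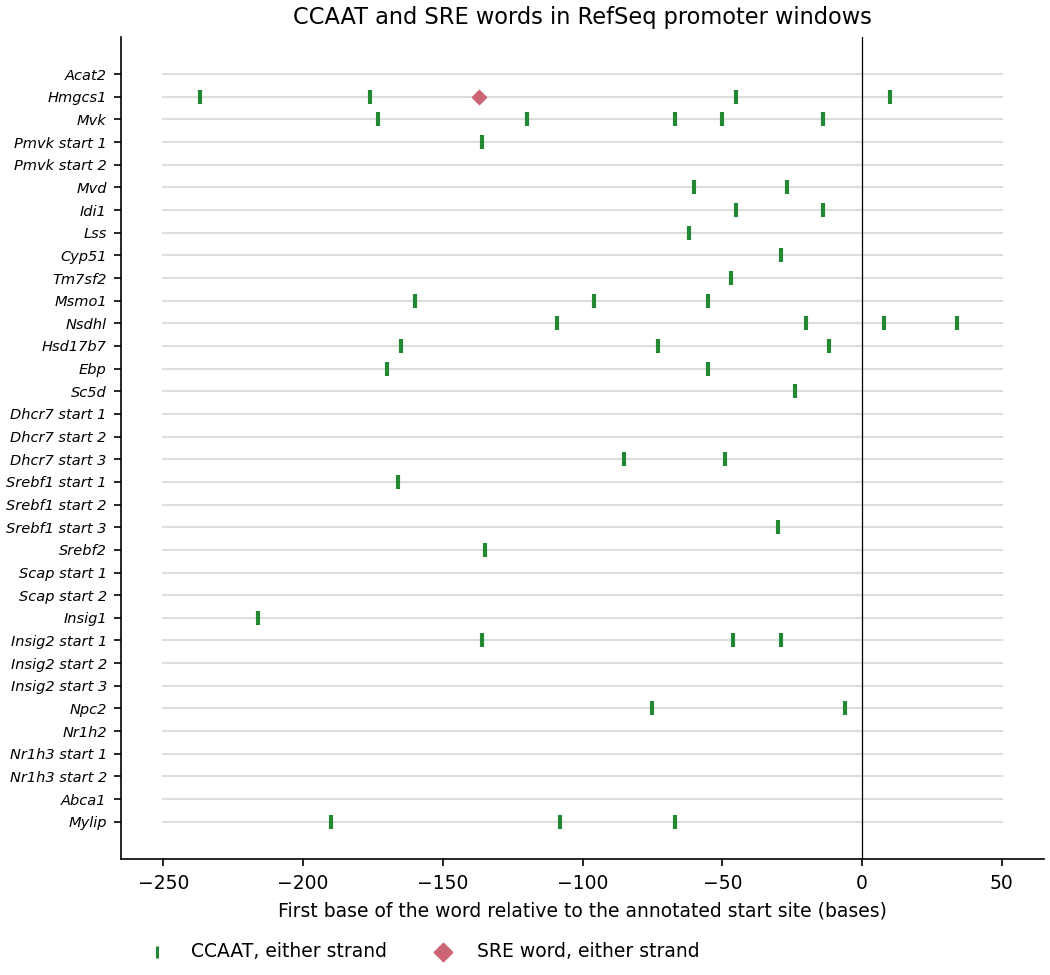
Position of each CCAAT word (green bars) and sterol response word (red diamond) in the 34 RefSeq windows, with the x axis giving bases from the annotated start site. Most CCAAT words of the enzymes lie within 100 bases before the start, in risers such as Msmo1 and in Mvk alike, and the single sterol word lies in Hmgcs1. Positions in other promoters were not compared.

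In the mevalonate stage, 4 of 7 genes rose (57.1%), 2 fell (28.6%) and 1 did not pass. Over all tested genes, 25.5% were higher and 26.6% lower. Acat2, the cytosolic thiolase that joins acetyl-CoA units, read 65.9, 67.6 and 63.1 CPM in Ctrl-gRNA and 87.1, 86.0 and 88.5 CPM in Prr33-gRNA, a log2 fold change of 0.41 (SE 0.05; edgeR adjusted p = 7.87e-08). All Prr33-gRNA libraries were above all controls. Acat2 resembles Acat3 (up to 97.7% identity, longest match 1477 bases, 25 to 37 counts per library). It also resembles part of a Tcp1 transcript (up to 98.65%, longest match 445 bases). Tcp1 held 5895 to 6500 counts per control library and 7625 to 8639 with the Prr33 guide, more than Acat2 and higher in the same direction. Some reads may have been misassigned, and the part of this in the Acat2 rise was not tested. Hmgcs1, which makes HMG-CoA, read 197, 208 and 206 CPM against 243, 241 and 235 CPM. Its rise was 1.18-fold (0.23, SE 0.04; edgeR adjusted p = 2.98e-05), and it was the most abundant enzyme per length in both groups.

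The mevalonate kinases went the other way. Mvk, which phosphorylates mevalonate, had 30.6, 28.3 and 28.4 CPM in Ctrl-gRNA and 22.4, 27.0 and 22.0 CPM in Prr33-gRNA (log2 fold change -0.29, SE 0.09; edgeR adjusted p = 0.00513). The groups stayed apart, though Prr33-gRNA replicate 2 came close to the controls. Pmvk, the next kinase, had 18.5, 17.9 and 13.5 CPM against 9.83, 11.2 and 8.04 CPM, a 1.72-fold fall (log2 fold change -0.78, SE 0.13; edgeR adjusted p = 7.83e-06). Control replicate 3 was the low one of its group and still lay above each Prr33-gRNA library.

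After the kinases, the direction turned again. Mvd, the decarboxylase that yields isopentenyl diphosphate, read 32.9, 33.0 and 27.2 CPM in Ctrl-gRNA and 40.8, 39.2 and 35.0 CPM in Prr33-gRNA (0.30, SE 0.08; edgeR adjusted p = 0.00199). Replicate 3 was lowest in each group. Idi1, the isomerase that balances the isoprene units, had the largest rise of the 31 genes, from 46.8, 52.8 and 55.8 CPM to 81.9, 73.1 and 87.9 CPM (0.65, SE 0.07; edgeR adjusted p = 7.47e-09). Idi1 (ENSMUSG00000058258) lies on the plus strand of chromosome 13 at 8885501 to 8892451 (mm10). A processed pseudogene, Gm13502, matches Idi1 at up to 100% identity, and its longest match spans 684 bases. Gm13502 held 20 to 24 counts per control library and 43 to 54 with the Prr33 guide, far fewer than Idi1 itself. Fdps, at 9.61, 10.3 and 9.04 CPM against 9.34, 8.46 and 9.04 CPM, overlapped between groups and did not pass (-0.11, SE 0.13; edgeR adjusted p = 0.517).

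Squalene synthase was the deepest fall among the enzymes. Fdft1, which commits farnesyl diphosphate to sterols, read 121, 123 and 128 CPM in Ctrl-gRNA and 71.7, 74.8 and 65.5 CPM in Prr33-gRNA, 1.76-fold lower (log2 fold change -0.82, SE 0.05; edgeR adjusted p = 8.78e-15). Fdft1 (ENSMUSG00000021273; minus strand, 63145150 to 63179578, mm10) is the only one of the 31 genes on chromosome 14, whose 400 tested protein-coding genes had a median log2 fold change of -0.90, with 361 lower and 10 higher. Of those 400 genes 59.0% had values below that of Fdft1. Fdft1 also shares 18.3% of its exonic bases in GENCODE M21 with Ctsb on the opposite strand. Ctsb had 64219 counts in all, against 10425 for Fdft1, and a log2 fold change of -0.85. How strand was treated in counting is not stated, so reads over the shared exons cannot be told apart. Without Fdft1, 10 of 17 enzymes were higher and 3 lower (58.8% and 17.6%).

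From squalene to the sterol ring, Sqle did not pass and the next steps rose. Sqle, the squalene epoxidase and a known control point, read 125, 127 and 136 CPM against 133, 138 and 135 CPM, with overlapping groups (0.07, SE 0.05; edgeR adjusted p = 0.235). Without scaling factors it was called higher, at 0.16. Lss, which closes the ring to lanosterol, rose from 56.2, 50.6 and 50.9 CPM to 69.5, 68.3 and 72.2 CPM (0.41, SE 0.06; edgeR adjusted p = 5.68e-07). Cyp51, the demethylase that acts first on lanosterol, rose from 125, 128 and 125 CPM to 159, 163 and 157 CPM (0.34, SE 0.05; edgeR adjusted p = 1.33e-07). In both genes the lowest Prr33-gRNA library exceeded the highest control. Cyp51 shares 3.76% of its exonic bases with Akap9 on the other strand, and Akap9 was also higher (0.22). Tm7sf2 had 11.8, 11.3 and 8.80 CPM against 11.3, 11.3 and 11.8 CPM and did not pass (0.11, SE 0.13), and 12.1% of its exonic bases lie in exons of the same-strand gene Vps51.

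The C4-demethylation steps rose together in these libraries. Msmo1, the C4-methyl oxidase, read 116, 120 and 129 CPM in Ctrl-gRNA and 155, 156 and 162 CPM in Prr33-gRNA (0.37, SE 0.05; edgeR adjusted p = 1.00e-07). Matches to 10 other genes, with 135865 counts in all, cover 7.01% of its transcript. Some reads may have been misassigned there, and the part of this in the Msmo1 rise was not tested. Nsdhl, the decarboxylating dehydrogenase on the X chromosome, read 63.5, 64.9 and 64.5 CPM against 90.1, 84.6 and 80.1 CPM (0.40, SE 0.06; edgeR adjusted p = 2.87e-07). Hsd17b7, the ketoreductase that completes the cycle, read 56.8, 54.1 and 54.7 CPM against 68.8, 66.5 and 72.0 CPM (0.32, SE 0.06; edgeR adjusted p = 1.92e-05). None of the libraries of the groups overlapped for these 3 genes, and their rises lay between 1.25-fold and 1.32-fold.

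The last steps diverged. Ebp, the sterol isomerase, overlapped between groups, with 86.4, 86.6 and 78.0 CPM against 86.2, 82.3 and 77.6 CPM (-0.03, SE 0.06; edgeR adjusted p = 0.702). Sc5d, the desaturase that follows, rose 1.41-fold from 39.2, 39.6 and 39.8 CPM to 56.1, 56.5 and 54.3 CPM (0.49, SE 0.06; edgeR adjusted p = 3.93e-08). Its libraries varied little within each group. Dhcr7, which reduces 7-dehydrocholesterol to cholesterol, fell from 116, 115 and 118 CPM to 101, 100 and 98.1 CPM (log2 fold change -0.22, SE 0.05; edgeR adjusted p = 2.43e-04). It starts at 143823145 on chromosome 7 (mm10), where the guide's target Prr33 ends at 142506771, and the part of this position in its fall was not tested. The CPM of the 18 enzymes summed to between 1318 and 1338 across controls and between 1471 and 1496 with the Prr33 guide, a ratio of 1.12, given as a description.

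**Figure D4:**
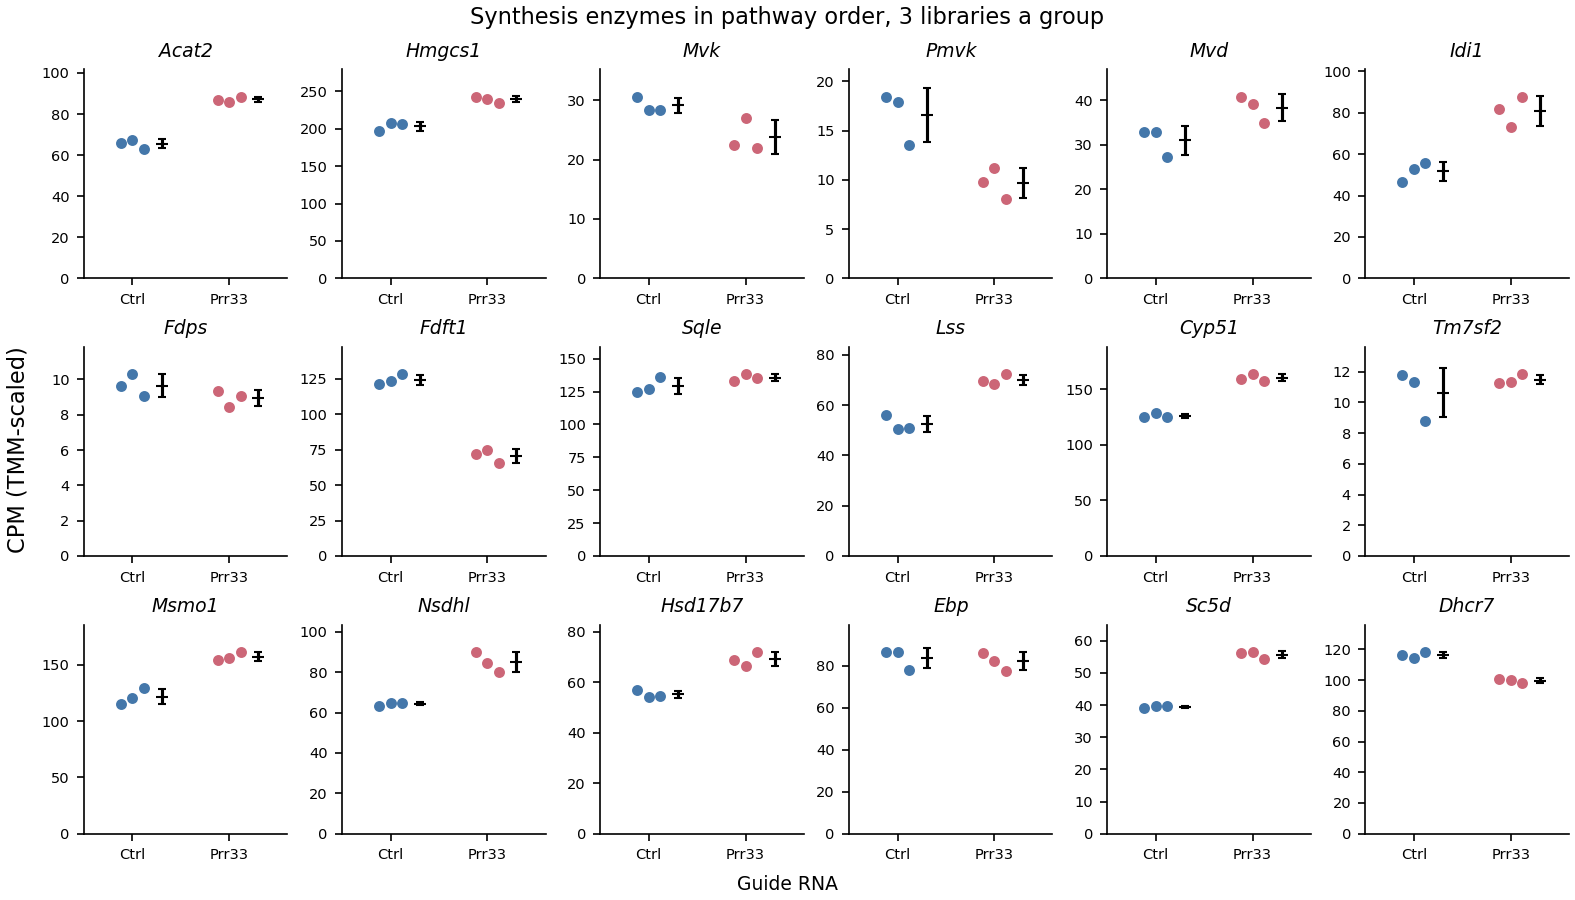
CPM (y axis, from 0) of the 18 synthesis enzymes in each of 3 Ctrl-gRNA (blue) and 3 Prr33-gRNA (red) libraries, with black bars for the mean and SD. Groups separate upward in 10 genes and downward in Mvk, Pmvk, Fdft1 and Dhcr7.

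Of the 5 regulators, Insig1 rose, Srebf2 fell and 3 did not pass (20% each way, beside 25.5% and 26.6% of all tested genes). Srebf2, which encodes the SREBP that chiefly drives sterol synthesis genes, had 416, 416 and 413 CPM in Ctrl-gRNA and 322, 352 and 320 CPM in Prr33-gRNA, 1.25-fold lower (log2 fold change -0.33, SE 0.04; edgeR adjusted p = 8.72e-08). Srebf2 (ENSMUSG00000022463) lies on the plus strand of chromosome 15 at 82147181 to 82205379 (mm10). In the same libraries 10 of the 18 enzymes stood higher and 4 lower. SREBP2 acts only after proteolytic release, which RNA levels do not measure. The part of Srebf2 in the enzyme changes was not tested. Srebf1, whose isoforms act more on fatty acid genes, read 114, 115 and 103 CPM against 101, 107 and 104 CPM and did not pass (-0.09, SE 0.05; edgeR adjusted p = 0.148). It was called lower, at -0.14, when Ctrl-gRNA replicate 3 was left out. Counts per gene do not separate its isoforms.

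Scap, the escort of SREBPs, read 65.8, 63.9 and 61.7 CPM against 59.1, 67.2 and 66.3 CPM, with no call (0.01, SE 0.06; edgeR adjusted p = 0.921). Insig1, a retention factor that is itself a known SREBP target, rose from 52.3, 62.6 and 57.4 CPM to 74.7, 83.3 and 78.9 CPM (0.46, SE 0.06; edgeR adjusted p = 2.04e-07). Its relative Insig2, at 101, 97.8 and 97.9 CPM against 98.7, 90.6 and 95.3 CPM, overlapped between groups (-0.06, SE 0.05; edgeR adjusted p = 0.363). Within each library, the log2 ratio of Insig1 to Insig2 went from -0.79 ± 0.15 to -0.27 ± 0.14 (SD, n = 3), without overlap between groups. An exact two-sided permutation test gave p = 0.1, the smallest that 3 against 3 libraries allow. The ratio was 1 of 3 computed after the values were seen, the others being Npc1 to Npc2 and Srebf2 to Srebf1, and each had an exact permutation p of 0.1 (0.1 adjusted).

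Intracellular transport genes split. Stard4, a cytosolic sterol carrier and known SREBP target, rose from 27.8, 29.0 and 27.7 CPM to 34.3, 34.7 and 39.1 CPM (0.36, SE 0.08; edgeR adjusted p = 1.99e-04). Npc1, the membrane protein that moves cholesterol out of late endosomes and lysosomes, rose from 52.1, 49.5 and 46.9 CPM to 74.4, 70.6 and 71.6 CPM (0.54, SE 0.06; edgeR adjusted p = 2.00e-09). Npc2, its soluble partner that hands cholesterol to NPC1 in the lysosome lumen, fell from 422, 425 and 431 CPM to 224, 239 and 216 CPM. That was the deepest change among the 31 genes (log2 fold change -0.91, SE 0.04; edgeR adjusted p = 8.07e-19). Npc2 (ENSMUSG00000021242) occupies chromosome 12 from 84754562 to 84773152, minus strand (mm10). The log2 ratio of Npc1 to Npc2 in each library went from -3.11 ± 0.09 to -1.65 ± 0.09 (SD, n = 3). Per length the gap between these partners shrank from 77.9 against 4.34 FPKM to 41.5 against 6.37 FPKM. Npc1 shares 4.52% of its exonic bases with Rmc1 on the other strand, which was also higher (0.21).

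Of the 5 LXR and export genes 3 were tested. Nr1h2, the widely expressed LXR-beta, fell from 92.6, 90.7 and 88.2 CPM to 77.5, 77.8 and 69.3 CPM (log2 fold change -0.28, SE 0.06; edgeR adjusted p = 8.99e-05). Nr1h3, for LXR-alpha, had 13 counts in all 3 controls together and 7 with the Prr33 guide, and was not tested. LXR transcript was therefore almost wholly Nr1h2, at 26.8 against 0.0978 FPKM in Ctrl-gRNA and 22.3 against 0.0495 FPKM in Prr33-gRNA. Mylip, an LXR-induced ubiquitin ligase that removes the LDL receptor, fell from 27.0, 27.4 and 26.8 CPM to 22.6, 23.3 and 21.5 CPM (log2 fold change -0.27, SE 0.08; edgeR adjusted p = 0.00616), a call lost without scaling factors (-0.18; edgeR adjusted p = 0.0618).

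The exporters were nearly absent. Abca1, which loads cholesterol onto apolipoproteins, read 2.75, 3.76 and 3.51 CPM against 1.96, 2.21 and 2.10 CPM, from 51, 62 and 59 counts against 36, 40 and 42. Its fall passed the test narrowly (log2 fold change -0.67, SE 0.24; edgeR adjusted p = 0.0193). The call was lost on either FPKM scale and without Ctrl-gRNA replicate 2 (-0.58), Ctrl-gRNA replicate 3 (-0.63) or Prr33-gRNA replicate 1 (-0.63), with edgeR adjusted p-values of 0.0966, 0.0578 and 0.0570. Abcg1, the other LXR-induced exporter, had 2 counts, both in Ctrl-gRNA replicate 3, and 0 elsewhere. Counts of 0 allow up to 3 counts in a library, or 0.150 to 0.182 CPM, so a difference was not detectable at this depth.

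**Figure D5:**
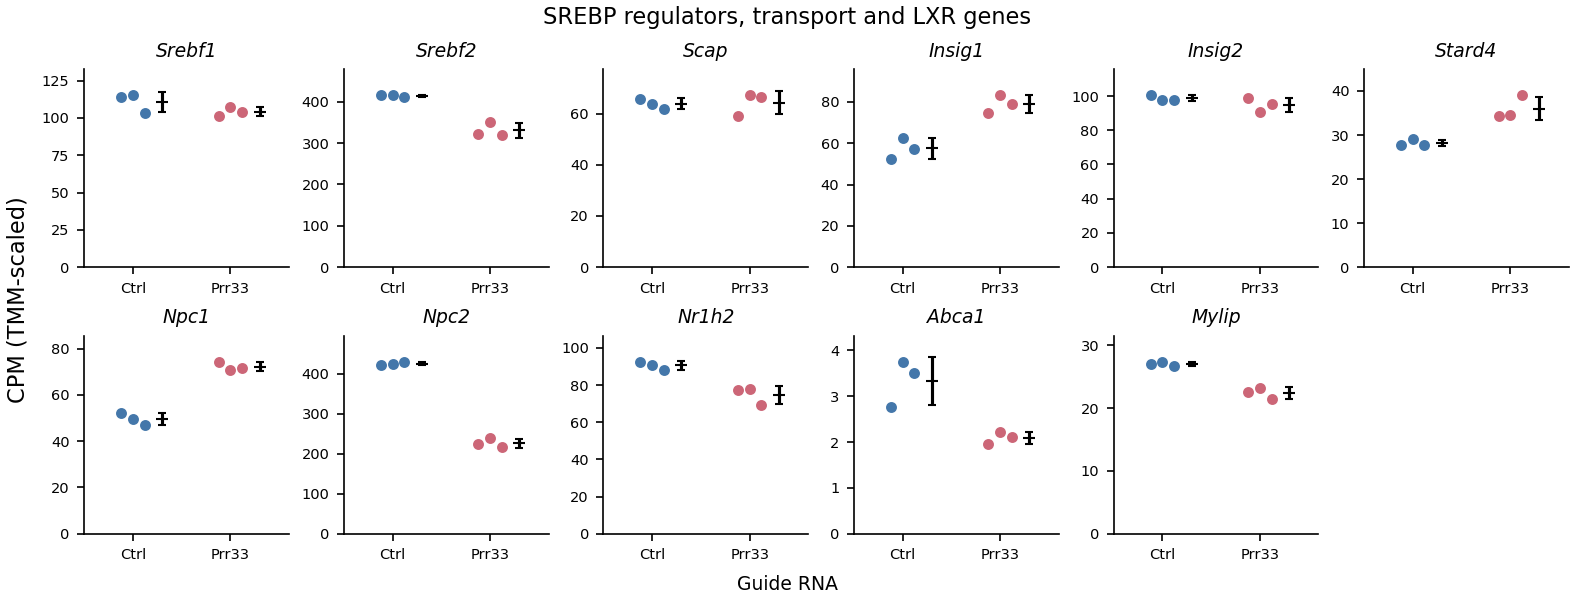
CPM (y axis, from 0) of the 11 tested regulators, transport and LXR genes in each of 3 Ctrl-gRNA (blue) and 3 Prr33-gRNA (red) libraries, with black bars for the mean and SD. Insig1, Stard4 and Npc1 lie higher in Prr33-gRNA, whereas Srebf2, Npc2, Nr1h2, Abca1 and Mylip lie lower.

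Around the 31 genes, 69 other pathway genes were listed and 63 tested, of which 25 were higher, 14 lower and 24 not called (39.7% and 22.2%, against 25.5% and 26.6% of all tested genes). Fatty acid synthesis, a set that SREBP1 is known to drive, was listed as 14 genes. Of these, 7 rose (50%), 1 fell (7.14%) and 6 did not pass. Fasn, fatty acid synthase, rose from 335 ± 8.68 to 495 ± 21.0 CPM (0.56), Me1, which supplies NADPH, rose by 0.60 on the log2 scale, and Gpam by 0.30. The one that fell was Mid1ip1, an activator of acetyl-CoA carboxylase (log2 fold change -0.89). Among 10 genes of SREBP processing and INSIG-linked degradation, 4 rose and 2 fell (40% and 20%). Erlin1 (0.47) and the SREBP site-1 protease gene Mbtps1 (0.16) rose, whereas Erlin2 fell (-0.39).

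Branches off farnesyl diphosphate moved both ways, with 4 of 11 genes higher and 3 lower. Those shares are 36.4% and 27.3%, beside 25.5% and 26.6% of all tested genes. Nus1, a subunit for dolichol synthesis, rose (0.41), as did the prenyltransferase gene Fnta (0.28). Coq2, of ubiquinone synthesis, fell (-0.25), and Rabggta fell (-0.80) and lies on chromosome 14 like Fdft1. Of 6 genes for electron donors and accessory steps 3 rose and 2 fell (50% and 33.3%). Cyb5b rose (0.45), as did Lbr, the other C14 reductase (0.29), while Cyb5r3 (-0.42) and Por (-0.22), which pass electrons to the sterol oxidases, fell.

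Among 6 lipoprotein receptor and lysosomal uptake genes, 5 were tested. Of these, 1 rose and 1 fell (20% each, beside 25.5% and 26.6% of all tested genes). Lrp8 rose 2.37-fold from 9.65 ± 0.825 to 22.9 ± 1.74 CPM and Lrp1 fell from 960 ± 37.4 to 775 ± 7.24 CPM (-0.31). The lysosomal lipase gene Lipa (0.03) did not pass. Of 9 tested genes for sterol transfer 4 rose and 2 fell (44.4% and 22.2%). The oxysterol-binding protein genes Osbp (0.35) and Osbpl2 (0.43) rose, and the START-domain genes Stard3 (-0.90) and Stard5 (-0.94) fell, the reverse of Stard4. Of 8 tested genes of esterification and oxysterol handling 2 rose and 3 fell (25% and 37.5%). Lpcat3, a phospholipid acyltransferase known as an LXR target, fell from 66.0 ± 0.877 to 39.4 ± 1.70 CPM (-0.75). Nceh1 (0.21) and Rxra (0.20), the latter a partner of LXR, rose, and Rxrb fell (-0.28).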

How the data were processed

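RNA-seq of C2C12 cells was deposited by the authors as whole read counts per gene, not normalized, and as FPKM per gene. The submitters' processing notes name featureCounts 1.5.0-p3, HISAT2 2.0.5, CASAVA and the mm10 build. Their roles, the strand setting and the annotation release are not given in the sources used here. Groups and replicate numbers came from the sample titles. The counts were tested with edgeR 4.0.16 in R 4.3.3 (filterByExpr, TMM, robust quasi-likelihood F test, no covariate) over all genes, with Benjamini-Hochberg adjustment and a threshold of 0.05. SE is the absolute log2 fold change over the square root of F. CPM used TMM-scaled library sizes, and levels of different genes were ranked by the deposited FPKM. Ratios between genes and sums over lists used CPM, without correction for gene length. Overlapping or similar genes were set side by side by counts.

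The 31 genes and the other gene lists were chosen with earlier results of these data known, and genes outside them were not analysed here. No list was tested as a set. Each of the 31 genes is accounted for, and of each other list up to 4 genes with the lowest adjusted p are named, apart from some not reported here. In a simulation of this comparison (14395 genes tested, 50 changed at each fold), 23 genes changed 1.25-fold were found, 32 of those at 1.5-fold, 39 at 2-fold and 49 at 4-fold, beside 19 false calls. These false calls were a larger share of its calls than the threshold of 0.05 aims at. The simulation changed a far smaller share of genes than the 52.1% called in the data. Its recovery thus does not give the sensitivity for the 31 genes. No replicate pair agreed within sampling noise (chi-square per gene from 2.76 to 5.32). Floors cover counting error only. Gene models and transcripts were those of GENCODE M21 (GRCm38), and each of the 31 genes had the same start and end there. Deposited gene lengths equalled the exonic bases there except for Fdft1, with 4116 against 4227 bases. Its exons in the counting may thus have differed. Copies were sought with BLAST 2.17.0 at 95% identity over at least 200 bases. Alternatives were RLE factors, no scaling factors, DESeq2 1.42.0, limma-voom (limma 3.58.1), other filters, protein-coding genes only, chromosome 14 left out, limma on FPKM after log2 with 1 or 0.1 added, a replicate block, a threshold of 0.01 and each library left out. Figures used matplotlib 3.10.9.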

Additional observations from a re-analysis of the deposited data

How the results depend on the processing

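Across 18 alternatives the 31 genes gave 13 or 14 higher and 8 or 9 lower, and the 18 enzymes 10 or 11 higher and 3 or 4 lower, 3 being the count with chromosome 14 and so Fdft1 left out. Leaving out single libraries gave 13 higher each time and 8 or 9 lower. Of 521 values for 29 genes, 512 kept their side of the threshold and none that was called changed direction. The exceptions were Abca1, Mylip, Sqle and Srebf1, given above, with Abca1 also above a threshold of 0.01 (edgeR adjusted p = 0.0193). Abca1 on the log2(FPKM + 1) and log2(FPKM + 0.1) scales had -0.14 and -0.47. The other pathway genes gave 19 to 32 higher and 9 to 14 lower, with 9 lower when no scaling factors were used, which raises the median log2 fold change of all genes by 0.09. Replicate numbers did not pair the libraries (correlations of deviations -0.01, -0.01 and 0.02), and with a replicate block 13 of the 31 genes were higher and 9 lower. Over all genes the block gave 3811 higher and 3975 lower, against 3740 and 3899 without it. Depth limits Abca1, Nr1h3 and Abcg1 most.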
